A study of Rattus norvegicus with 12 samples.

Results

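The collagen chain genes of the rat were described across cultures of skin-derived precursors (SKPs), sphere-forming cells grown from neonatal Sprague-Dawley rat skin. Members were taken as every array feature that carried exactly 1 gene symbol of the form Col, number, a, number, with the brightest feature where a gene had several. This gave 36 collagen genes from 37 features, among 18166 genes with such a feature. By class, 11 were fibrillar, 5 belonged to the basement membrane type IV family, 7 were FACIT collagens (fibril-associated collagens with interrupted triple helices) and 13 were others. Of the 36, 32 passed the limit on mean signal, a log2 value of 5.83, and were tested together with all 13636 genes above it.

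Secondary spheres were dissociated and cultured for 24 h with vehicle, with alprostadil, with trimebutine maleate, or with trimebutine maleate together with trametinib, at 100 nM for alprostadil and for each compound of the combination. The treatment text does not state plainly the dose of trimebutine alone, which was read as 100 nM as well. Alprostadil is prostaglandin E1, trimebutine is a drug given for gut motility, and trametinib inhibits the kinases MEK1 and MEK2. Growth medium with FGF2 at 40 ng/ml, EGF at 20 ng/ml and B27 at 2% was shared by the 4 groups, and what the vehicle held is not given in the sources used here. Each group had 3 arrays, labelled biological replicates, from 3 independent isolates of newborn pups; a group with trametinib alone was not analysed here, so trametinib could be assessed only on top of trimebutine. RNA came from whole cultures, and in such bulk samples fewer cells of a type and less RNA per cell cannot be told apart.

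Collagen chains wind into triple helices after prolines and lysines have been hydroxylated in the endoplasmic reticulum, and lysyl oxidases cross-link the secreted molecules. Fibrillar types I, III and V form the cables of the dermis, FACIT types XII and XIV sit on the surface of those cables, and type IV forms the sheet of basement membranes. The ERK pathway, which lies downstream of FGF and EGF receptors and of MEK, is a known regulator of matrix genes in mesenchymal cells.

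With trametinib, most fibrillar chains, the main type IV chains and the FACIT chains of types XII and XIV were higher, and Col8a1 and Col18a1 were lower. Against trimebutine alone, 15 of the 32 tested collagen genes were higher and 2 were lower (limma, Benjamini-Hochberg adjusted p under 0.05), where 16.8% of all tested genes were higher and 16.6% were lower. Of the fibrillar genes, 9 of 11 rose, with a median log2 difference of 0.58 over the 11, against 0.03 over all genes tested. Both main type IV chains, Col4a1 and Col4a2, rose together with Col4a5, and the FACIT genes Col12a1 and Col14a1 rose more than 2-fold each. In the remaining class only Col8a2 rose, Col8a1 and Col18a1 fell, and the median over its 11 tested genes was -0.00. The largest rise was that of Col11a1, by 2.21 on the log2 scale, and the largest fall was that of Col8a1, by 1.95.

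**Figure D1:**
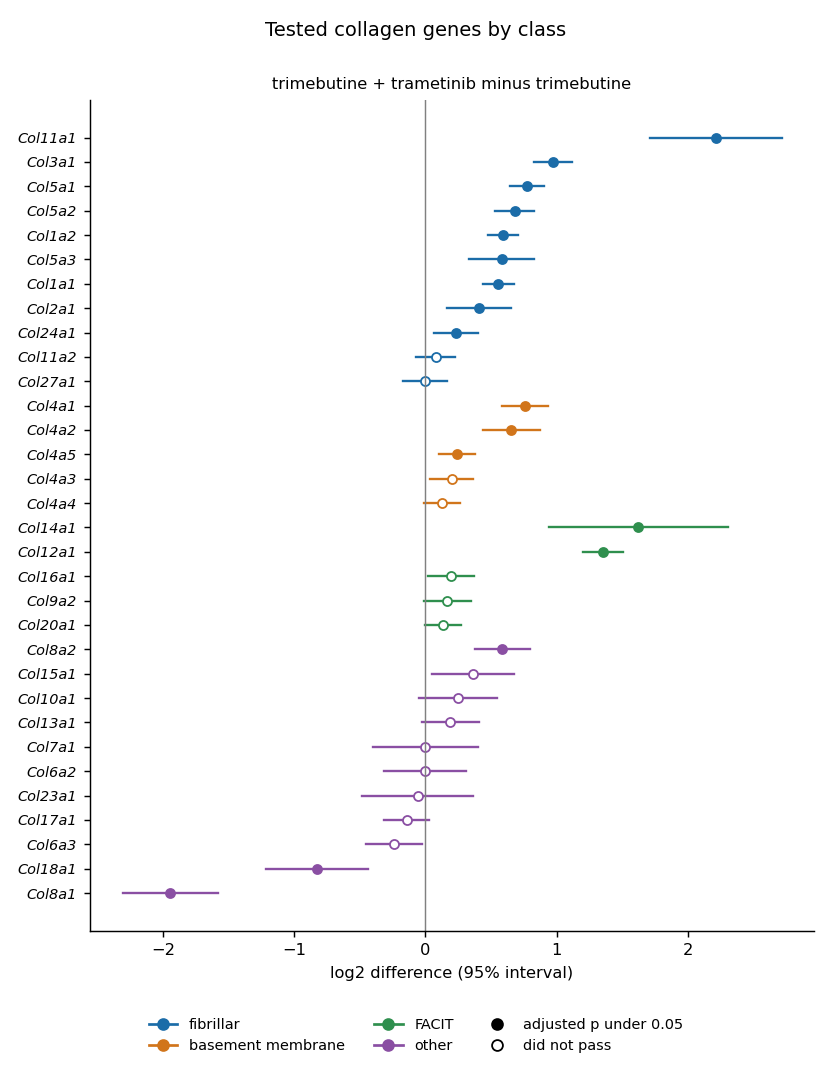
Log2 difference of each tested collagen gene between trimebutine with trametinib and trimebutine alone (x axis), with its 95% interval from limma; filled points had an adjusted p under 0.05, and colours give the class. Most fibrillar genes lie to the right of 0, and Col8a1 and Col18a1 are the 2 filled points to the left.

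Start-site sequences are shown for 4 genes: Col4a1, whose window overlaps that of its partner chain Col4a2; Col11a1, with the largest rise; and Col8a1 and Col8a2, chains of the same collagen type that moved in opposite directions. Each runs 5' to 3' on the gene's strand, from 250 bases before to 50 bases after the RefSeq start in the GRCr8 assembly. Capitals mark CCAAT boxes (CCAAT) and GC boxes (GGGCGG) on either strand. Windows were at chr16:84885347-84885646 (plus strand) for Col4a1, chr2:204508886-204509185 (plus strand) for Col11a1, chr11:56246532-56246831 (plus strand) for Col8a1 and chr5:143870519-143870818 (plus strand) for Col8a2.
Col4a1: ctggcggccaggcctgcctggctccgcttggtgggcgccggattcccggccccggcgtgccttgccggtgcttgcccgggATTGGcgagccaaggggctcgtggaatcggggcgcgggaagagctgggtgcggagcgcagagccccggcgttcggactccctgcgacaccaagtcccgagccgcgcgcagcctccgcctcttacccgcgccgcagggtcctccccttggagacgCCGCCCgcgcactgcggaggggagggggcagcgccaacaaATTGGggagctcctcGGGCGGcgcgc
Col11a1: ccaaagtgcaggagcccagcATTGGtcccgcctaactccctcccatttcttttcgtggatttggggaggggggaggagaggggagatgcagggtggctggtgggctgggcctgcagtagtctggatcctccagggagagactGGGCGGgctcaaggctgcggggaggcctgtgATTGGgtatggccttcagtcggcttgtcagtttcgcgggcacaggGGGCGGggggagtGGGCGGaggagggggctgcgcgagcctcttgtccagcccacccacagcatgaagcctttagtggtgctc
Col8a1: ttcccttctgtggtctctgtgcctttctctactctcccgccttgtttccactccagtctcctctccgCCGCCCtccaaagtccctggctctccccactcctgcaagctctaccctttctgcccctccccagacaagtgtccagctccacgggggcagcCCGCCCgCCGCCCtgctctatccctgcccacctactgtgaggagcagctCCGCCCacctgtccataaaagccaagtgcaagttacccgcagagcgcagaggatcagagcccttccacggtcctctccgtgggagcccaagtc
Col8a2: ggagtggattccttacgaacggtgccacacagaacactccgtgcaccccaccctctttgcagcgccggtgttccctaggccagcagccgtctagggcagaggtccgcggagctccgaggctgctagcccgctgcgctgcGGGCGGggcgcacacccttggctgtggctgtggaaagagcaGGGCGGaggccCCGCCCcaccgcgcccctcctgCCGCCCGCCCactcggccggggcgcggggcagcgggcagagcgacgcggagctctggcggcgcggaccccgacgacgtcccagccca
Col4a1 and Col4a2 start 77 bases apart on opposite strands of chromosome 16, and their windows share 176 bases. In the printed windows, Col4a1 and Col11a1 hold both kinds of box, and the windows of Col8a1 and Col8a2 hold GC boxes without a CCAAT box. RefSeq windows matched 30 of the 36 collagen genes. A GC box was present in 18 of these 30 genes and in 33.1% of all 33469 windows, and a CCAAT box in 8 of the 30 and in 37.5% of all windows. A TATA box (TATAAA) was present in 4 of the 30 genes and in 14.2% of all windows. The AP-1 letters TGANTCA were in none of the 30, against 7.33% of all windows. Such matches describe letters in these windows and show no binding.

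Type I collagen, the main cable of skin, is built from the chains of Col1a1 and Col1a2. Col1a1 was at 12.82, 12.81 and 12.91 with vehicle, 12.72, 12.75 and 12.76 with alprostadil, 12.85, 12.84 and 12.95 with trimebutine, and 13.42, 13.42 and 13.47 with trimebutine and trametinib (log2 expression value, replicate numbers 1 to 3). Col1a2 was at 12.48, 12.41 and 12.49, then 12.40, 12.38 and 12.38, then 12.53, 12.47 and 12.53, and with trametinib at 13.15, 13.08 and 13.07. For both chains the 3 trametinib arrays lay above the other 9. Relative to trimebutine alone, Col1a1 was 1.47-fold and Col1a2 1.51-fold higher (limma adjusted p 1.3e-05 and 4.9e-06). Their changes differed by -0.04 on the log2 scale (exact permutation p = 0.5, 3 against 3 per-array differences).

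Type III collagen, a homotrimer of Col3a1, is found with type I in young and healing dermis. Col3a1 was at 12.31, 12.27 and 12.44 with vehicle, 12.27, 12.22 and 12.33 with alprostadil, 12.37, 12.32 and 12.45 with trimebutine, and 13.39, 13.28 and 13.38 with trametinib. It was 1.96-fold higher than with trimebutine alone (log2 difference 0.97, 95% interval 0.83 to 1.11, limma adjusted p 8.2e-07), with no overlap between groups. Type I and III chains lay near the top of the arrays' range: the highest feature of the trametinib arrays was at 13.75 to 13.76, so Col1a1 was 0.28 to 0.34 below it there and 0.83 to 0.95 below it with vehicle. Whether this nearness reduced the measured rises was not tested.

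Type V collagen starts fibrils and limits their width, and all 3 of its chain genes rose. Col5a1 was at 9.62, 9.76 and 9.78 with vehicle, 9.50, 9.58 and 9.57 with alprostadil, 9.70, 9.76 and 9.76 with trimebutine, and 10.49, 10.55 and 10.50 with trametinib. Col5a2 was at 10.41, 10.40 and 10.51, then 10.34, 10.29 and 10.47, then 10.44, 10.36 and 10.55, and with trametinib at 11.09, 11.15 and 11.16. Col5a3 was at 9.38, 9.05 and 9.01, then 9.07, 9.07 and 8.92, then 9.39, 9.15 and 9.01, and with trametinib at 9.83, 9.76 and 9.70. In all 3 genes every trametinib array was above the arrays of the other groups. Against trimebutine the log2 differences were 0.77 for Col5a1 (limma adjusted p 1.9e-06), 0.68 for Col5a2 (1.5e-05) and 0.58 for Col5a3 (0.0019). A second Col5a1 feature, not used in the test, moved from 8.77 to 8.85 with trimebutine to 9.42 to 9.58 with trametinib.

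Type XI collagen is the cartilage relative of type V and can share molecules with it. Col11a1 was at 7.48, 7.25 and 8.03 with vehicle, 7.12, 7.18 and 7.63 with alprostadil, 7.38, 7.48 and 7.92 with trimebutine, and 9.47, 9.82 and 10.13 with trametinib. It was 4.64-fold higher than with trimebutine alone (log2 difference 2.21, 95% interval 1.71 to 2.72, limma adjusted p 2.1e-05). Its partner chain Col11a2 lay between 6.64 and 6.78 with trimebutine and between 6.72 and 6.86 with trametinib, a log2 difference of 0.08 (95% interval -0.07 to 0.23) that did not pass. Col11a2 had low signal, with a mean of 6.72 over all arrays, where the median over features with 1 symbol was 7.09. The change of Col11a1 exceeded that of Col11a2 by 2.13, and per-array differences between the 2 genes did not overlap between groups (exact permutation p = 0.1, the smallest that 3 against 3 can give). The pair was picked with the values in view.

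Col2a1 and Col24a1 had low signal. Col2a1, the main cartilage fibril chain, was at 6.64, 6.65 and 6.80 with trimebutine and at 7.34, 7.14 and 6.85 with trametinib (log2 difference 0.41, limma adjusted p 0.014). Without trametinib replicate 1 the difference was 0.30 with an adjusted p of 0.0516, and with replicate number 1 left out of all groups in the replicate block it was 0.27 with 0.128. Leaving out number 2 in the same way gave 0.37 with an adjusted p of 0.149. Col24a1 differed by 0.23 (adjusted p 0.036), and this call was lost without trimebutine replicate 1 (adjusted p 0.132), trimebutine replicate 2 (0.0985) or trametinib replicate 2 (0.145). Without leaving out a replicate, Col24a1 also missed the threshold in limma with no filter (0.055), trend and robust settings (0.057) or the 2 groups alone (0.0934). After cyclic loess normalization Col24a1 differed by 0.16 (limma adjusted p 0.0761). Against vehicle it differed by 0.12 and did not pass. Over all genes between 5.83 and 6.5 in mean signal the median difference was 0.07 with trametinib. Col27a1 differed by -0.01 (95% interval -0.18 to 0.16).

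**Figure D2:**
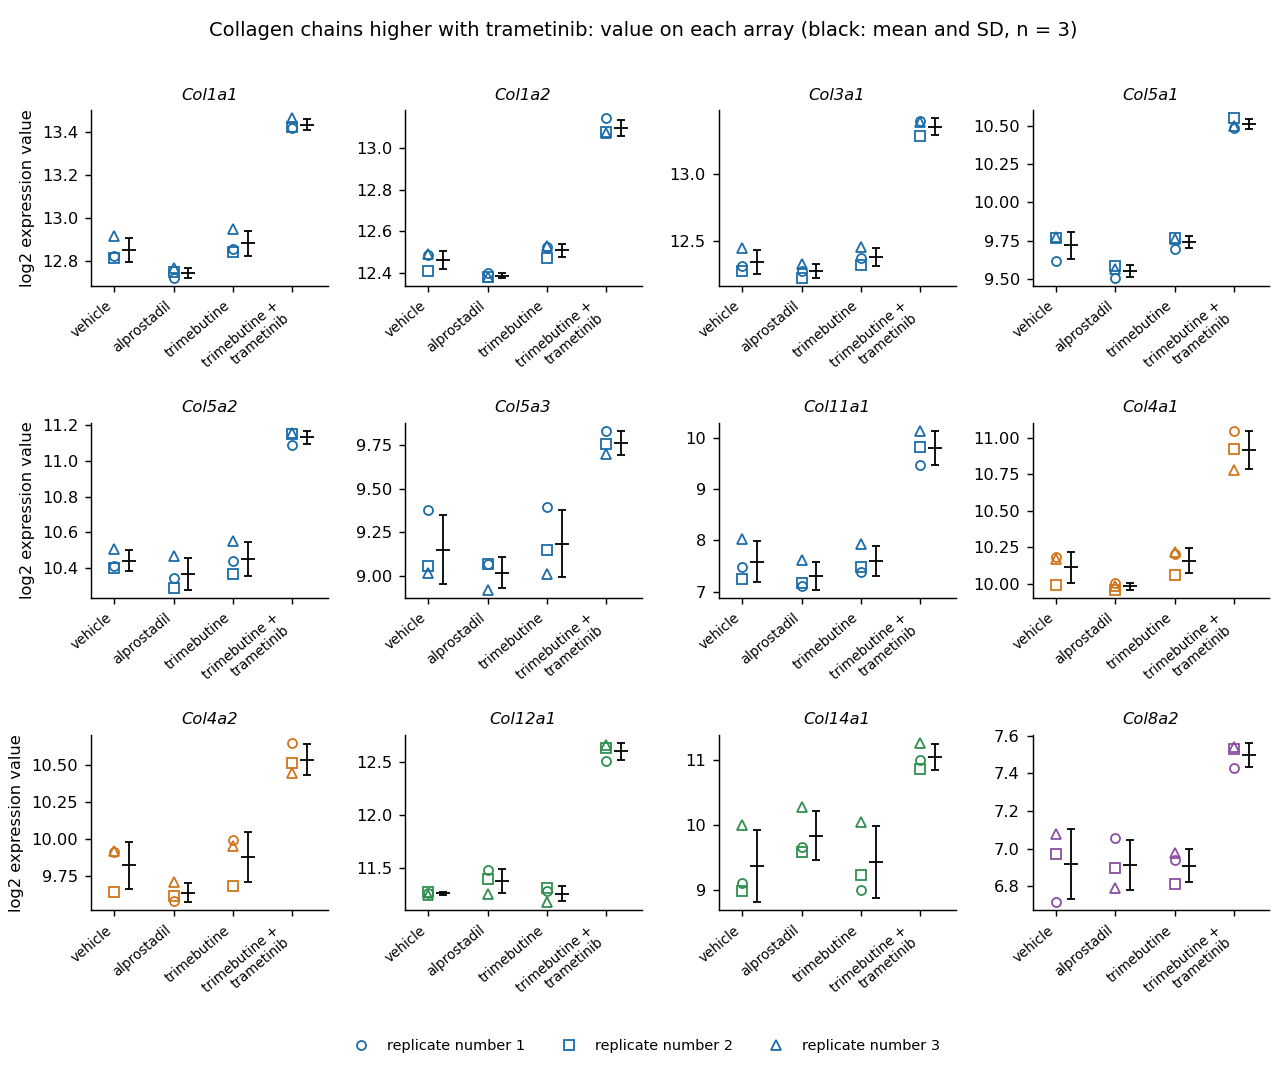
Log2 expression value (y axis, a separate scale in each panel) on each of the 12 arrays for 12 collagen chain genes that were higher with trametinib; symbols give the replicate number, and black marks give the group mean and SD (n = 3). In each panel the trametinib arrays lie above the arrays of the other 3 groups.

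In the type IV family, the general basement membrane chains rose. Col4a1 was at 10.18, 9.99 and 10.17 with vehicle, 10.01, 9.95 and 9.98 with alprostadil, 10.20, 10.06 and 10.21 with trimebutine, and 11.05, 10.92 and 10.78 with trametinib. Col4a2 was at 9.92, 9.64 and 9.92, then 9.59, 9.62 and 9.71, then 10.00, 9.69 and 9.96, and with trametinib at 10.65, 10.51 and 10.45. No array of another group reached the trametinib arrays for either chain. Against trimebutine, Col4a1 was 1.69-fold and Col4a2 1.58-fold higher (limma adjusted p 2.3e-05 and 0.00038). The changes of these head-to-head neighbours differed by 0.10 (exact permutation p = 0.2).

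Of the chains of specialised basement membranes, 1 of 3 passed. Col4a5 was at 6.22 to 6.25 with trimebutine and 6.41 to 6.52 with trametinib, a log2 difference of 0.24 (limma adjusted p 0.011). That call was lost in the replicate block when number 2 was left out of all groups (adjusted p 0.133). Col4a3 differed by 0.20 (adjusted p 0.061) and Col4a4 by 0.13 (adjusted p 0.15). These 3 genes lie in the range of signal where the median of all genes was 0.06 to 0.07 higher with trametinib.

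FACIT collagens XII and XIV bind along type I fibrils in dermis, tendon and fascia. Col12a1 was at 11.26, 11.27 and 11.24 with vehicle, 11.47, 11.39 and 11.25 with alprostadil, 11.28, 11.30 and 11.17 with trimebutine, and 12.52, 12.64 and 12.67 with trametinib. It was 2.56-fold higher than with trimebutine alone (log2 difference 1.36, 95% interval 1.20 to 1.51, limma adjusted p 1.1e-07), which was the lowest adjusted p among the collagens in this comparison. Col14a1 was at 9.11, 8.98 and 10.01 with vehicle, 9.65, 9.58 and 10.28 with alprostadil, 8.99, 9.23 and 10.05 with trimebutine, and 11.01, 10.87 and 11.27 with trametinib. In each group the third replicate number had the highest Col14a1 value, and the trametinib arrays stood above all others. The difference was 3.08-fold (log2 1.62, 95% interval 0.94 to 2.31, adjusted p 0.0019).

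The other 3 tested FACIT genes did not pass against trimebutine. Col16a1, found beside fibrillin microfibrils in dermis, differed by 0.19 against trimebutine (limma adjusted p 0.086). With the replicate block the same difference had an adjusted p of 0.042, and against vehicle it was 0.25 with 0.032. Col9a2, a cartilage chain, differed by 0.17 and Col20a1 by 0.13, and neither passed.

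Type VIII collagen, a short-chain network collagen of vessel walls and Descemet's membrane, is made of the chains of Col8a1 and Col8a2. Col8a1 was at 10.78, 11.00 and 11.02 with vehicle, 10.50, 10.84 and 10.96 with alprostadil, 10.76, 11.05 and 11.00 with trimebutine, and 8.66, 9.36 and 8.95 with trametinib. Col8a2 was at 6.72, 6.97 and 7.08, then 7.06, 6.90 and 6.79, then 6.94, 6.81 and 6.98, and with trametinib at 7.43, 7.53 and 7.54. The trametinib arrays were the lowest of the 12 for Col8a1 and the highest of the 12 for Col8a2. The mean of Col8a2 over all arrays was 7.06, just under the median of 7.09 over features with 1 symbol, and that of Col8a1 was 10.41. Against trimebutine, Col8a1 was 3.85-fold lower (log2 difference -1.95, 95% interval -2.31 to -1.58, limma adjusted p 4.8e-06) and Col8a2 was 1.50-fold higher (0.59, 0.37 to 0.80, adjusted p 0.00067). The change of Col8a1 minus that of Col8a2 was -2.53, from -2.61 to -2.41 over the 3 replicate numbers (exact permutation p = 0.1, the smallest possible). This pair was picked with the values in view.

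The multiplexins XV and XVIII lie at the outer face of basement membranes, and the end of type XVIII is the source of endostatin. Col18a1 was at 9.83, 9.56 and 9.32 with vehicle, 9.55, 9.54 and 9.22 with alprostadil, 9.84, 9.35 and 9.37 with trimebutine, and 9.02, 8.52 and 8.54 with trametinib. It was 1.77-fold lower than with trimebutine alone (log2 difference -0.83, 95% interval -1.22 to -0.44, limma adjusted p 0.0038), and no trametinib array reached any other array. Col15a1 was at 10.39, 10.14 and 10.53 with vehicle, 10.35, 10.38 and 10.59 with alprostadil, 10.37, 10.17 and 10.68 with trimebutine, and 10.93, 10.56 and 10.82 with trametinib. For Col15a1 the trimebutine and trametinib arrays overlapped, and the difference of 0.36 did not pass (adjusted p 0.075). Within each replicate number Col15a1 was higher with trametinib, by 0.14 to 0.56, and with the replicate block the adjusted p was 0.0053. The changes of Col15a1 and Col18a1, a pair picked with the values in view, differed by 1.19 (0.97 to 1.37 over replicate numbers, exact permutation p = 0.1).

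Type VI collagen forms beaded filaments around cells and was measured through Col6a2 and Col6a3, while Col6a1 was not analysed here. Col6a2 was at 11.38, 11.54 and 11.72 with vehicle, 11.21, 11.51 and 11.64 with alprostadil, 11.40, 11.60 and 11.83 with trimebutine, and 11.40, 11.67 and 11.74 with trametinib. Its difference against trimebutine was -0.00 (95% interval -0.32 to 0.31, and -0.12 to 0.11 with the replicate block). Col6a3 was at 11.67, 11.44 and 11.74, then 11.52, 11.45 and 11.56, then 11.70, 11.52 and 11.76, and with trametinib at 11.33, 11.36 and 11.57. The Col6a3 groups overlapped, and the difference of -0.24 did not pass (limma adjusted p 0.082). It was lower with trametinib within all 3 replicate numbers, by -0.37 to -0.16, and with the replicate block the adjusted p was 0.01. Collagen genes were compared in 8 pairs, picked with the values in view, and the permutations did not use the replicate numbers. Most pairs were chains of the same type, but Col15a1 with Col18a1 and Col12a1 with Col14a1 were related chains of different types. The lowest Benjamini-Hochberg adjusted permutation p over these pairs was 0.267.

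**Figure D3:**
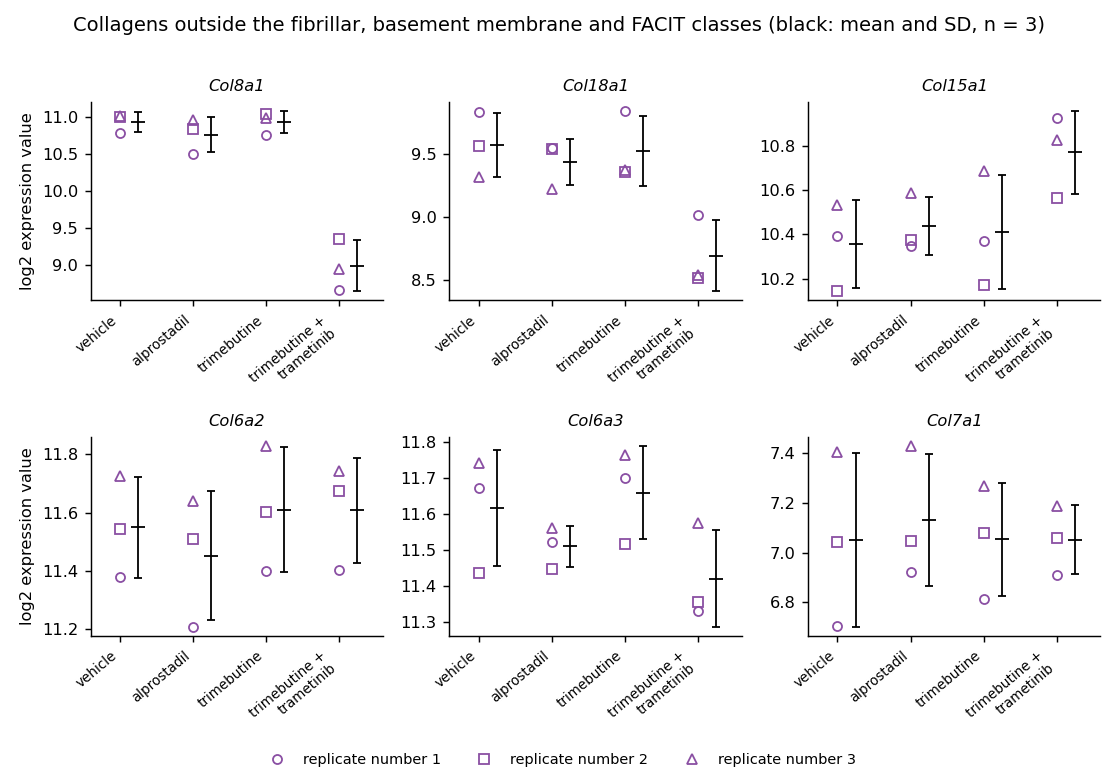
Log2 expression value (y axis, a separate scale in each panel) on each of the 12 arrays for 6 collagen genes outside the fibrillar, basement membrane and FACIT classes; symbols give the replicate number, and black marks give the group mean and SD (n = 3). Col8a1 and Col18a1 are lowest on the trametinib arrays, whereas the trametinib arrays overlap those of trimebutine alone for Col15a1, Col6a2, Col6a3 and Col7a1.

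Collagens that hold the epidermis to the dermis were at low signal and did not pass. Col7a1, the anchoring fibril chain, was at 6.71, 7.04 and 7.40 with vehicle, 6.92, 7.04 and 7.43 with alprostadil, 6.81, 7.08 and 7.27 with trimebutine, and 6.91, 7.06 and 7.19 with trametinib. Col17a1, the transmembrane collagen of hemidesmosomes, was at 6.72, 6.91 and 6.84, then 6.96, 7.10 and 6.89, then 7.01, 6.83 and 6.83, and with trametinib at 6.72, 6.82 and 6.70. The groups overlapped for Col7a1, and for Col17a1 the trametinib arrays lay just below the trimebutine arrays. The differences were -0.00 (95% interval -0.40 to 0.40) and -0.14 (-0.32 to 0.03). The transmembrane collagens Col13a1 and Col23a1 differed by 0.19 and -0.06, and Col10a1, the chain of hypertrophic cartilage, by 0.25, and none of these 3 passed.

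The comparison of trametinib-treated cells with vehicle uses the same 3 trametinib arrays, so it is no separate evidence. In it 17 collagen genes were higher and 2 were lower (limma), where 17.5% of all genes were higher and 17.5% lower. Its values beside those against trimebutine were 2.22 and 2.21 for Col11a1, 1.35 and 1.36 for Col12a1, 1.69 and 1.62 for Col14a1, 1.01 and 0.97 for Col3a1, and -1.95 in both for Col8a1. Col4a3 (0.24, adjusted p 0.03), Col15a1 (0.42, 0.042) and Col16a1 (0.25, 0.032) passed here but not against trimebutine, and the reverse held for Col24a1. The call for Col15a1 was lost without vehicle replicate 1 (adjusted p 0.0808) or 2 (0.156) and without trametinib replicate 1 (0.14) or 3 (0.103). The call for Col16a1 was lost without vehicle replicate 1 (0.0871) or 2 (0.116) and without trametinib replicate 2 (0.0971) or 3 (0.0967). The call for Col4a3 was lost without vehicle replicate 1 (0.123) or 2 (0.0666) and without trametinib replicate 1 (0.0816) or 2 (0.109). With the replicate block, 17 collagens were higher and 3 lower against trimebutine, with 21.2% and 20.8% of all genes, and 17 and 3 against vehicle, with 22.1% and 21.1%.

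Neither alprostadil nor trimebutine alone moved a collagen gene past the threshold. With alprostadil 0 of 32 passed in limma, where 0.389% of all genes passed, and with the replicate block again 0 of 32 passed, where 1.88% of all genes did. At an unadjusted p under 0.05, alprostadil gave 1 collagen gene without the block, beside 950 of the 13636 genes tested, and 5 with it, beside 1800. With trimebutine 0 of 32 passed, as did 0% of all genes with and without the block, and at an unadjusted p under 0.05 there were 0 collagen genes in either limma fit, beside 143 of all genes without the block and 252 with it. Both comparisons share the vehicle arrays.

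Alprostadil values of the fibrillar class lay slightly below vehicle for 9 of 11 genes, and the median difference was -0.07, against -0.01 over all genes. Of all genes, 42.0% to 49.3% lay above vehicle, depending on the range of signal. Col5a1 had the lowest unadjusted p (log2 difference -0.17, 95% interval -0.30 to -0.04, limma adjusted p 0.5). Col1a1 differed by -0.11 (95% interval -0.22 to 0.01). The alprostadil arrays lay below those of vehicle without overlap for Col1a1, Col1a2, Col5a1 and Col24a1, and none of these genes passed. The share of such genes over all genes was not counted, so this separation cannot be read as a fall of collagen genes. The highest alprostadil difference was that of Col14a1, at 0.47 (95% interval -0.21 to 1.16), with values above vehicle within each replicate number. With the replicate block its interval was 0.19 to 0.76 and its adjusted p 0.11, and with replicate number 3 also left out of all groups the difference was 0.58 with an adjusted p of 0.0495.

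Trimebutine differences against vehicle ran from -0.12 for Col24a1 to 0.11 for Col27a1. The 95% intervals of all 32 genes lay between -0.62 and 0.75, both bounds being those of Col14a1, and with the replicate block between -0.39 and 0.35. A p that misses the threshold does not show that trimebutine leaves collagen genes as they were.

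**Figure D4:**
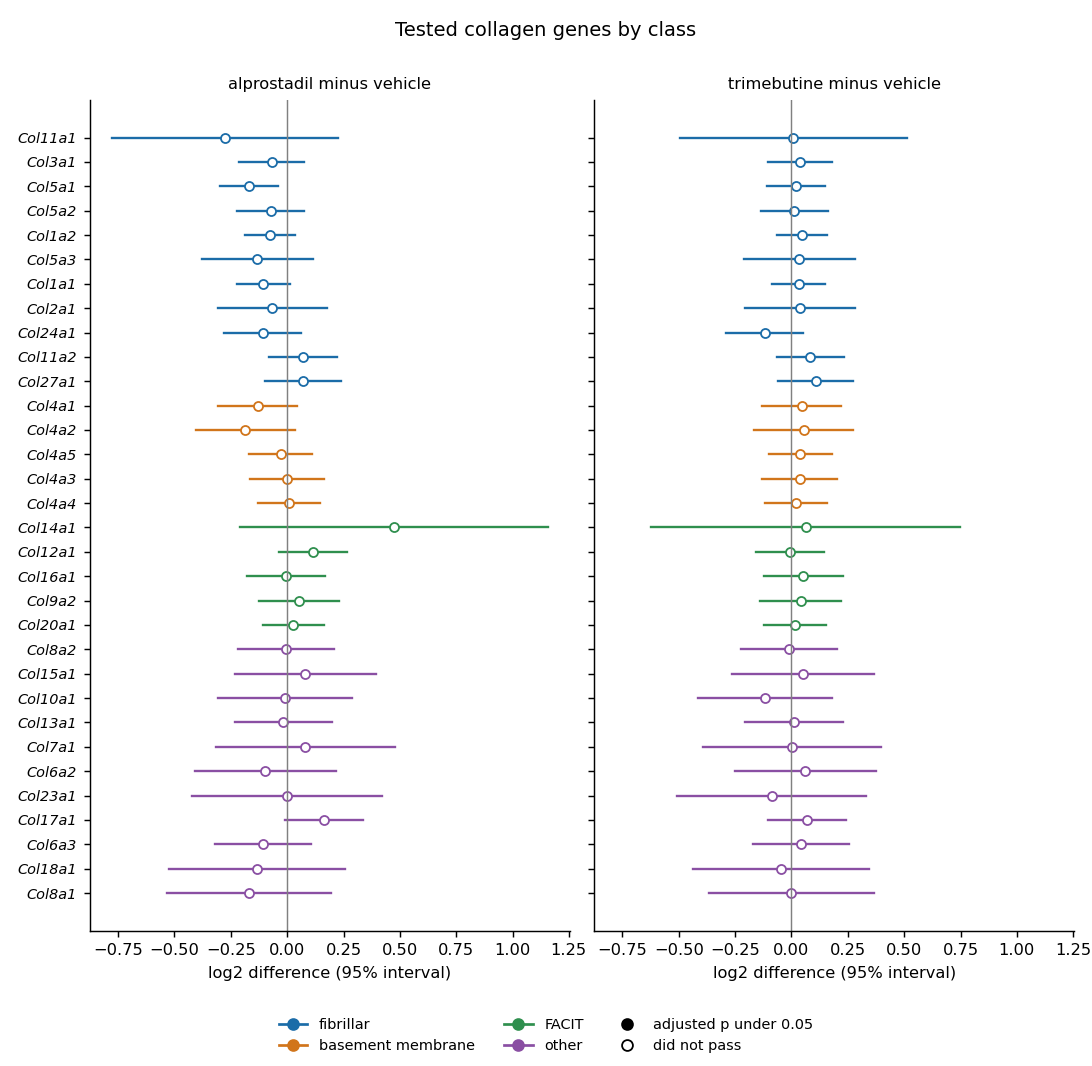
Log2 difference of each tested collagen gene from vehicle (x axis, the same in both panels), with its 95% interval from limma, for alprostadil (left) and trimebutine (right); open points did not pass, and colours give the class. No point is filled, and the widest intervals include those of Col14a1 and Col11a1.

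Genes that modify and fold collagen moved in the same comparison with trametinib. Of 21 tested genes of hydroxylation, glycosylation, folding and export, 13 were higher and 1 was lower than with trimebutine alone (limma), with a median of 0.26. Over all tested genes in this comparison, 16.8% were higher and 16.6% were lower, with a median of 0.03. P4ha2, a subunit of collagen prolyl 4-hydroxylase, was at 8.08, 8.14 and 8.14 with trimebutine and 9.80, 9.80 and 9.63 with trametinib, and was 3.08-fold higher (adjusted p 1.8e-08). Plod2, which hydroxylates the lysines used in cross-links, rose by 0.80, Serpinh1, the collagen chaperone HSP47, by 0.69, and the 2 collagen galactosyltransferases Colgalt1 and Colgalt2 by 0.80 and 1.00. Creb3l1, a transcription factor of secretory cells that is known to act on Col1a1, rose by 1.16. The single gene of this list that fell was P3h2, a prolyl 3-hydroxylase, at 9.12, 8.49 and 9.09 with trimebutine and 7.47, 7.56 and 7.98 with trametinib (log2 difference -1.23, adjusted p 0.00078).

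Of 11 tested genes that trim procollagen or cross-link collagen, 8 were higher and 1, Tll2, was lower, with a median of 0.58. The shares over all tested genes were 16.8% and 16.6%. Loxl2, a lysyl oxidase, was at 9.83, 9.73 and 9.79 with trimebutine and 11.51, 11.54 and 11.64 with trametinib, a 3.43-fold rise (limma adjusted p 1.7e-08). Lox was at 10.74, 11.05 and 10.36 and then 11.70, 11.93 and 11.54, a 2.01-fold rise (0.0016). Adamts2 and Adamts14, which remove the amino-terminal propeptide, rose by 0.98 and 0.79, and Bmp1, which removes the carboxy-terminal propeptide, rose by 0.86. Trametinib arrays lay above the trimebutine arrays for Loxl2 and Lox without overlap.

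Among 15 tested proteins that bind collagen fibrils, 9 were higher and 1 was lower, where 16.8% of all tested genes were higher and 16.6% lower. The leucine-rich proteoglycans Aspn and Ogn rose by 2.46 and 1.79 and Tgfbi by 1.53 on the log2 scale (limma adjusted p 2.3e-05, 2.3e-07 and 0.0001). Dcn, Bgn and Fn1 differed by 0.04, 0.04 and 0.05 and did not pass, and Aebp1 fell by 0.55. Of 8 tested receptors, the collagen-binding integrin subunit Itga11 and the kinase receptor Ddr1 rose by 0.83 and 0.34, while Itga2 and Itga10 fell by 1.82 and 0.36.

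Of 8 tested proteases that cleave collagen, Mmp13, Mmp9 and Mmp1 fell (Mmp1 to a mean under the signal limit), Mmp2 rose by 0.27, and the other 4 did not pass. Over all tested genes 16.6% were lower and 16.8% higher. Mmp13, a collagenase, was at 12.25, 12.03 and 12.36 with trimebutine and 5.60, 6.49 and 7.30 with trametinib, a log2 difference of -5.75 (limma adjusted p 1.4e-07). Mmp14, the membrane collagenase, differed by -0.02 (95% interval -0.29 to 0.26). RNA levels of proteases and enzymes give no measure of collagen protein, which was not analysed here.

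**Figure D5:**
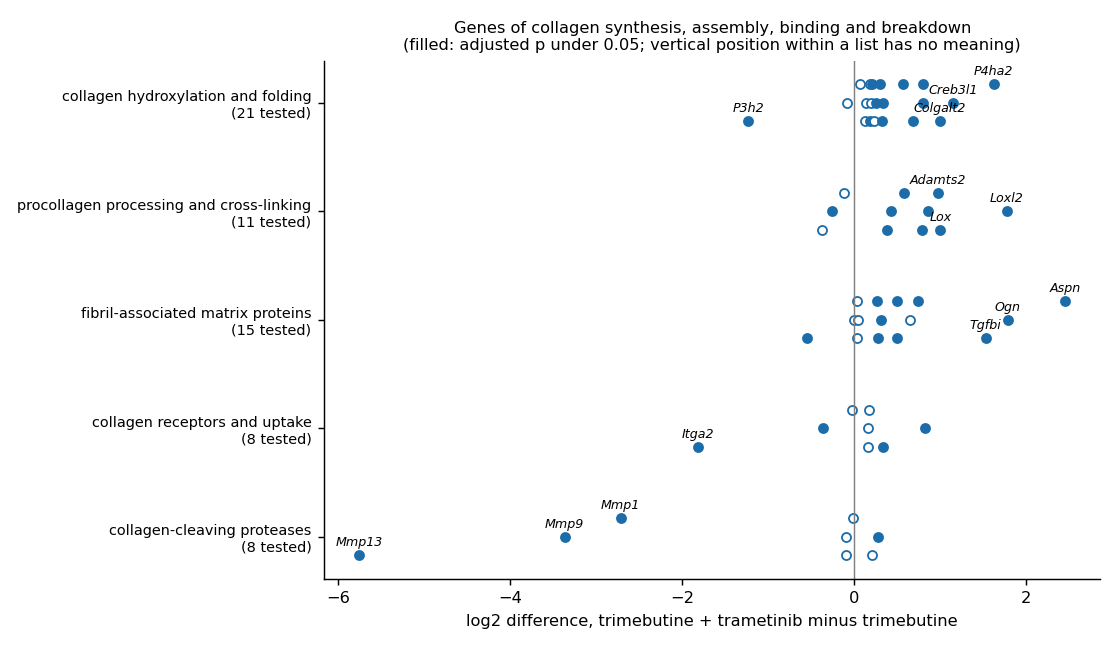
Log2 difference between trimebutine with trametinib and trimebutine alone (x axis) for each tested gene of 5 lists around collagen; filled points had a limma adjusted p under 0.05, and names are given for the passing genes with the largest differences. Filled points of the synthesis and cross-linking lists lie mostly to the right of 0, and Mmp13, Mmp9 and Mmp1 lie far to the left.

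Other genes moved on the same arrays. Of 10 genes of MEK and ERK output, 9 were lower with trametinib (Dusp6 by -3.23) and Spry2 was higher, and 10 of 10 proliferation genes were lower, with a median of -2.31. Beside these counts, 16.6% of all tested genes were lower and 16.8% higher. The mean log2 value of 7 dermal fibroblast markers was 10.87 to 10.93 on the trimebutine arrays and 11.66 to 11.78 on the trametinib arrays, where Mfap5, Thy1 and Lum passed. For 4 smooth muscle and pericyte markers it was 7.44 to 7.60 and 7.91 to 8.13, and only Tagln passed, at 2.37. The mean of these 4 went from 7.52 to 7.99, a rise for which Tagln alone was more than enough. The other members of this list did not rise on balance. For 5 adipocyte markers the mean log2 value was 8.38 to 9.78 and 9.29 to 10.23, and Lpl passed. For 9 SKP and dermal precursor markers it was 9.79 to 9.92 and 9.86 to 9.94. For 6 macrophage markers it was 7.58 to 8.42 and 7.34 to 8.12, and for 4 Schwann markers 6.78 to 6.99 and 6.89 to 7.26. The 6 chondrocyte markers with a feature averaged 6.28 to 6.49 and 6.11 to 6.34, the 6 of 9 keratinocyte markers with a feature 5.64 to 5.79 and 5.70 to 5.85, and the 5 of 7 endothelial markers 5.84 to 5.89 and 5.85 to 6.06, with Epcam and Tie1 under the signal limit in every group. Passing markers are named here only for the fibroblast, smooth muscle and adipocyte lists, and markers of the other lists may have passed too. The part of any of these in the collagen differences was not tested.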

How the data were processed

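Total RNA was labelled with biotin and hybridised to Affymetrix Rat Gene 2.0 ST arrays, 1 per culture, per the labels' protocols. The authors deposited log2 expression values, for which the submitters' processing notes name the oligo package and the RMA method, without versions. RMA gives the probe intensities of all arrays a common distribution and so hides any change in the amount of RNA per cell. The values summarised by feature need not share it exactly, and the array medians ran from 6.41 to 6.50.

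Gene names came from the platform annotation, updated to GRCr8 symbols. Genes under the 25th percentile of mean signal were left out. A linear model in limma 3.58.1 (R 4.3.3) covered the 12 arrays, with group means as its terms and 8 residual degrees of freedom, and contrasts were adjusted by Benjamini-Hochberg over 13636 genes; it was checked on simulated data. Collagen chain genes were all accounted for by class, and values on every array are given for the measured chains of types I, III, V, VI, VII, XII, XIV, XV, XVII and XVIII, for Col4a1, Col4a2 and Col11a1, and for up to 6 of the largest passing changes in each direction. Members and gene lists were chosen with earlier results of these data known.

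Replicate numbers paired the arrays: deviations of same-numbered arrays from their group means correlated at 0.21 to 0.81 over 18 pairs, and those of other pairs at -0.71 to 0.10 over 36 pairs. Deviations within a group cancel by construction, so positive correlations for same numbers force negative ones on balance for the others. The range of the other pairs is therefore no separate evidence of pairing. The number of arrays limits the precision.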

Additional observations from a re-analysis of the deposited data

How the results depend on the processing

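Of the 17 collagen genes that passed against trimebutine, 14 passed under every alternative in which they were tested (other filters, scalings, feature summaries and limma settings, the replicate block, and leaving out an array), and none changed sign. The other 3 were Col2a1, Col4a5 and Col24a1. A filter at the median signal left these 3 and Col8a2 untested, and 13 collagen genes passed there, beside 4160 of 9100 genes tested. Leaving out 1 array gave 16 to 19 collagen genes against trimebutine, 16 to 21 against vehicle, and 0 with either single compound. Of the 13636 genes tested, 3677 to 4165 passed there against trimebutine and 3811 to 4341 against vehicle. With alprostadil 30 to 42 passed, and with trimebutine 0. In the replicate block without number 3, alprostadil gave 1 collagen gene, Col14a1, beside 125 of all genes. Below the threshold against trimebutine, Col15a1, Col16a1, Col4a3 and Col6a3 passed under some alternatives, Col10a1 did without trimebutine replicate 2, and Col23a1 did in the replicate block without number 1. Below the threshold against vehicle, Col4a4, Col6a3, Col9a2, Col11a2, Col20a1 and Col23a1 passed under some alternatives.

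The count over all genes for alprostadil, 53, was 257 with the replicate block, 323 with the block and cyclic loess normalization (added after seeing the data), 88 with the block without number 1, 37 with the block without number 2, 125 with the block without number 3, 84 with array weights, 29 with the 2 groups alone, and 30 to 42 when 1 array was left out; the cause was not tested. Centring each array on its median raised the median difference of all genes with trametinib from 0.03 to 0.07.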

Other observations

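Some collagen genes differed between replicate numbers in the same way in each group. Number 3 was the highest of the 3 arrays in all 4 groups for Col1a1, Col5a2, Col6a2, Col6a3, Col7a1, Col11a1 and Col14a1, and number 1 was the highest in all 4 for Col5a3 and Col18a1. The share of such genes over all genes was not counted. Over all tested genes, deviations of same-numbered arrays correlated at 0.21 to 0.81, so offsets between replicate numbers were not particular to collagen genes. Averaged over groups, the replicate numbers spanned 0.74 on the log2 scale for Col14a1 and 0.57 for Col11a1. Csf1r, a macrophage receptor, was at 7.47, 8.22 and 9.04 on the vehicle arrays and Adipoq, an adipocyte hormone, at 8.44, 9.75 and 10.41, both highest in number 3; their part in the collagen values was not tested.

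Col6a6, Col9a1, Col19a1 and Col26a1 were under the signal limit and were not tested. On the trametinib arrays they reached 5.68, 6.02, 6.25 and 5.97 at most.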
